A study of Solanum lycopersicum with 18 samples.

Results

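Fruit of the tomato mutant rin at 45 days was compared with rin fruit at 35 days, which asks what still changes with age in fruit that does not ripen normally. The comparison holds 6 of the 18 arrays of the series, 3 of each age, taken by the genotype and age in their labels. RNA from pericarp, the flesh around the seeds, of the variety Pusa Ruby was hybridised to the Affymetrix tomato array. Wild type and the rin mutant were sampled at 35, 40 and 45 DAP, which the labels spell out as days after planting. The labels call rin fruit immature green at 35 DAP, breaker at 40 DAP and red-ripe at 45 DAP, the same names as for wild-type fruit of those ages. Wild type at 35 and 45 DAP is used for comparison, and no group carries a treatment in its labels. Titles number a plant and a biological replicate for each array. A second code in the rin titles differs between 35 and 45 DAP for replicate 1 and recurs for replicates 2 and 3. In wild type it differs for all 3 numbers, but code 7 stands at replicate 3 of 35 DAP and replicate 1 of 45 DAP. The p-values below thus reflect the spread among the arrays, part of which may be technical. Unless another fit is named, that spread is pooled within groups over all 18 arrays, wild type and 40 DAP included. It is not that of the 6 arrays compared alone. With 3 arrays in a group the precision of every value is limited.

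Ripening of tomato is driven by ethylene and by a set of transcription factors, among them the MADS-box protein RIN and the NAC protein NOR. In ripening fruit, enzymes that loosen the cell wall, make carotenoids and form aroma volatiles are induced, while chlorophyll is broken down. Fruit of rin plants stays firm and does not redden, since the lesion removes part of RIN and fuses it to a neighbouring gene, and such fruit makes little ethylene.

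The deposited value of a probe set on an array is a linear signal, called its signal here, and all tests were on log2 of it. RIN itself read 5.91, 6.39 and 5.46 at 35 DAP, 5.33, 9.27 and 5.29 at 40 DAP and 5.61, 5.11 and 5.11 at 45 DAP on replicates 1, 2 and 3 in rin. All 9 of these signals were dim, and wild type read 158, 62.5 and 236 at 35 DAP and 6929, 5527 and 5434 at 45 DAP. Whether this probe set lies in the part of RIN that the lesion removes was not assessed. Dim signals in rin thus do not show that the gene is silent. A signal is called dim when it does not exceed the 30th percentile of its own array, which ran from 13.1 to 14.97 on the 6 arrays compared. The tissue label was met by 2A11, an abundant fruit transcript, at 13424, 20340 and 19482 at 35 DAP and 18941, 19549 and 18628 at 45 DAP. The proline-rich protein gene TPRP-F1, also listed as a fruit marker, was dim on 5 of the 6 arrays and read 357 on replicate 2 at 35 DAP. No seed marker matched a probe set with a gene name, so seed content was not assessed. Replicate 2 at 35 DAP also stood apart in the ratio of 3′ to 5′ control probe sets, a measure of RNA integrity, with a mean log2 ratio of 2.1 against 0.51 and 1.04 on the other 35 DAP arrays and 0.77, 0.26 and 0.47 at 45 DAP. At 45 DAP replicates 2 and 3 resembled each other (r = 0.991 of log2 signals, across probe sets, which are not independent) more than either resembled replicate 1 (0.915 and 0.924).

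Between 35 and 45 DAP a part of the transcripts known from ripening rose in rin fruit, among them those of the polygalacturonase PG2 (at least 313-fold), the mannanase Man4 (at least 194-fold), the ester-forming enzyme AAT (at least 48.4-fold) and the regulator NOR (at least 30.8-fold). The small heat shock protein gene ER-SHSP rose at least 112-fold. Among the falls were the wall enzyme gene XTH7 (at least 12.2-fold), the auxin response repressor IAA17 (at least 10.7-fold) and the starch synthesis gene AgpL1 (at least 26.7-fold). Of 7717 probe sets tested, 11.3% passed an adjusted p under 0.05 in limma's moderated test, with Benjamini-Hochberg adjustment over all probe sets. Of these, 463 were higher at 45 DAP (6.0%) and 409 lower (5.30%). Rose and fell are used only for probe sets that passed this test, and called means the same. At least 4-fold changes made up 127 of the rises and 151 of the falls, and 16 rises and 13 falls reached 32-fold, by the ratio of geometric means with dim signals as deposited. The arrays of both ages did not overlap for 30.1% of all probe sets. Of the 635 genes with a name and a tested probe set, 12.6% were called, 45 higher (7.09%) and 35 lower (5.51%). The number of calls differed widely between fits. With all 18 arrays it was 872, with the 6 arrays compared it was 394, and with the 9 rin arrays alone it was 72. It was 267 without replicate 2 at 35 DAP and 208 with the 3′ to 5′ ratio as a covariate. The other fits without 1 array gave 617 without replicate 1 at 45 DAP, 303 and 301 without replicate 2 or 3 at 45 DAP, 386 without replicate 3 at 35 DAP and 1754 without replicate 1 at 35 DAP. With replicates 2 and 3 at 45 DAP averaged it was 292. None of the 872 calls had its sign turned in these fits. With the 6 arrays compared or the 9 rin arrays the change itself is the same, so no sign could turn there. The 872 were also selected as called, which made a turned sign unlikely in the other fits. Of the 42 called genes chosen by size or adjusted p for description below, PG2, ER-SHSP, XTH7 and IAA17 were still called with the 9 rin arrays alone, and 20 were with the covariate.

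Few changes were called on either side of 40 DAP. Between 35 and 40 DAP 0.0259% of probe sets were called, 2 in number and both lower at 40 DAP. Before adjustment 1060 had a p under 0.05. Between 40 and 45 DAP 0.363% were called, 13 higher and 15 lower. The comparisons among the 3 ages share arrays. The 3 rin arrays at 40 DAP differed among themselves. By correlation of log2 signals, replicate 1 was closest to replicate 1 at 45 DAP (0.967). Replicate 2 was closest to replicate 1 at 35 DAP (0.952), and replicate 3 to replicate 1 of its own age (0.94). Among the 3 arrays at 40 DAP, replicate 1 was the highest for 397 of the 463 probe sets that rose from 35 to 45 DAP. It was the lowest for 285 of the 409 that fell. At 45 DAP replicate 1 was the highest for 274 of the rising probe sets and the lowest for 151 of the falling ones. IAA17, an auxin response repressor, was 1 of the 2 probe sets called between 35 and 40 DAP (adjusted p = 0.0307). The small heat shock protein genes ER-SHSP (adjusted p = 0.0292), HSP21 (adjusted p = 0.0358) and vis1 (adjusted p = 0.0358) were called between 40 and 45 DAP.

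Among the 5 ripening regulators on the array, NOR alone was called, while RIN, TDR4, TAGL1 and AG1 were not. NOR, the NAC factor whose loss blocks ripening, read 60.6, 9.65 and 77.1 at 35 DAP, 1910.5, 79.8 and 103 at 40 DAP and 2362, 895 and 903 at 45 DAP (replicates 1, 2 and 3 at each age, here and below). All 45 DAP arrays lay above all 35 DAP arrays, of which replicate 2 was dim. Replicate 1 at 40 DAP was already near the 45 DAP level while replicates 2 and 3 were near the 35 DAP level. The rise of NOR was at least 30.8-fold (adjusted p = 0.00741). Such a bound is the ratio of geometric means with each dim signal of the lower age raised to its array's 30th percentile. TDR4, the tomato FRUITFULL-like MADS-box gene, read 1337, 141 and 582 at 35 DAP and 994, 541 and 583 at 45 DAP, and its arrays overlapped (adjusted p = 0.661). TAGL1, an AGAMOUS-like MADS-box gene of ripening, read 1104, 638 and 672 at 35 DAP and 1146, 560.2 and 748 at 45 DAP, with a log2 change of 0.01 ± 0.294 (SE) (adjusted p = 0.99). AG1, a floral AGAMOUS gene, read 579, 323 and 270.5 at 35 DAP and 649, 330.1 and 300.2 at 45 DAP, and its arrays overlapped too (adjusted p = 0.905). The median log2 change of the 5 was 0.12, against 0.0254 over all probe sets. With 1 of the 6 arrays left out, the call of NOR held in all 6 such fits. The fold of NOR was 18.2-fold without replicate 2 at 35 DAP. With the 3′ to 5′ ratio as a covariate the test was missed by NOR (adjusted p = 0.0667). It was not called with the rin arrays alone either (adjusted p = 0.0717).

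**Figure D1:**
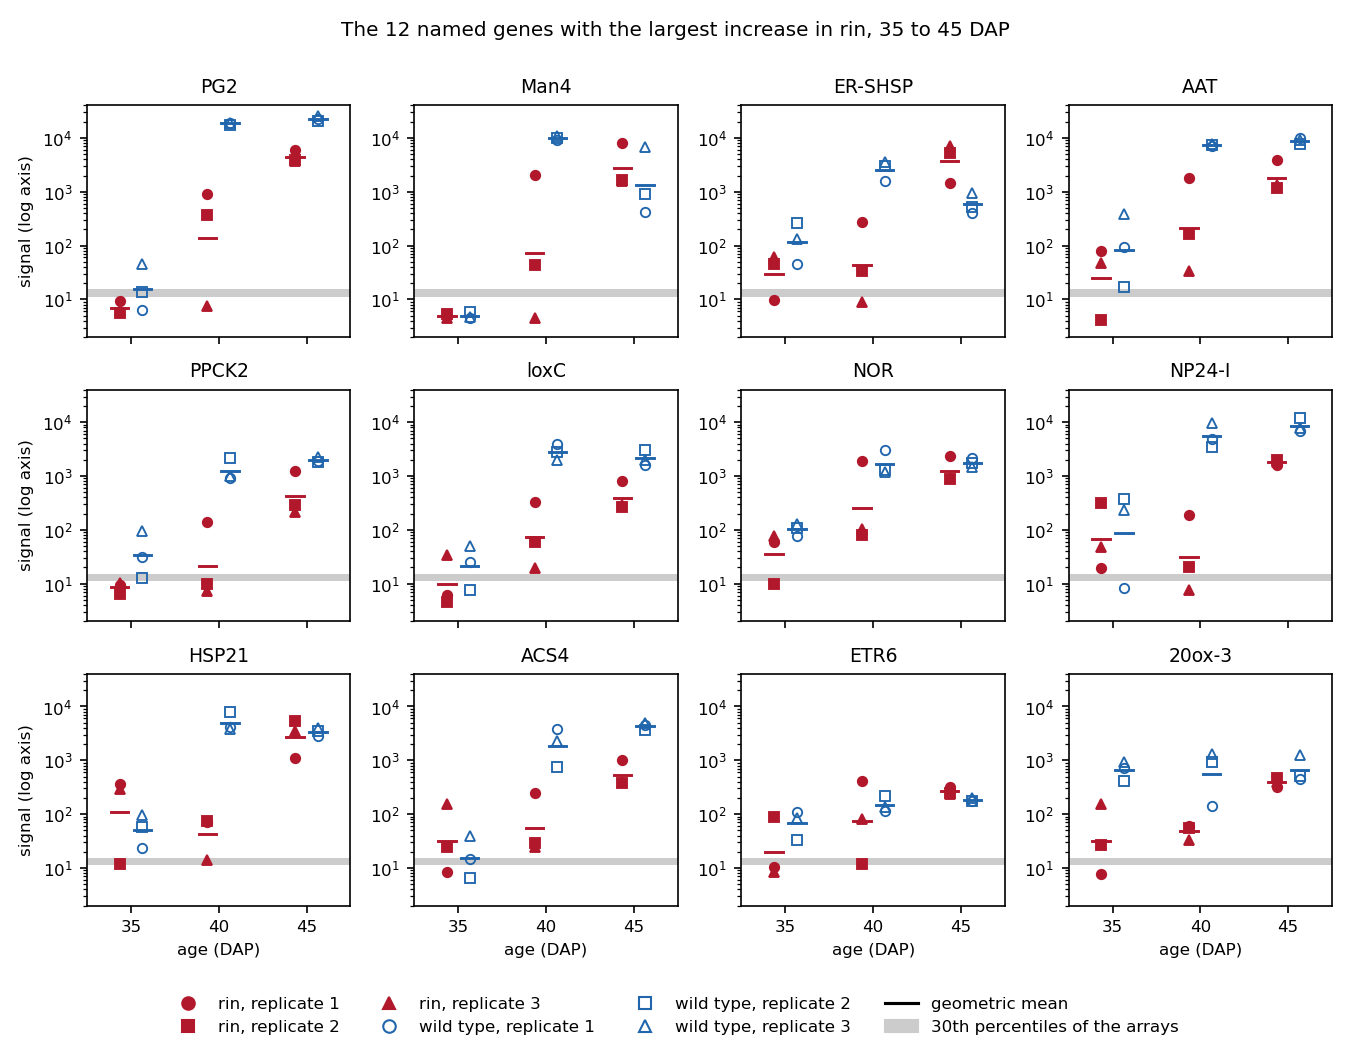
Signal (log axis) of the 12 named genes with the largest rise in rin fruit, among those whose arrays of 35 and 45 DAP do not overlap, against age in DAP, with rin arrays as filled red symbols, wild-type arrays as open blue symbols, 1 symbol shape for each replicate number, short lines at geometric means and a grey band over the arrays' 30th percentiles. By this choice the 45 DAP arrays lie above those of 35 DAP in every panel (vis1, with a larger rise than some of them, is left out by it), and replicate 1 is the highest rin array at 40 DAP in 11 of the 12.

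Ethylene is made from S-adenosylmethionine by ACC synthases (ACS) and ACC oxidases (ACO), and 2 of the 9 measured genes of this route rose while 1 fell (median log2 change 0.48). ACS4, an ACC synthase of ripening fruit, read 8.29, 24.96 and 157 at 35 DAP, 244, 29.3 and 24.9 at 40 DAP and 1008, 379.8 and 394 at 45 DAP. Each 45 DAP array lay above every 35 DAP array, with replicate 1 the highest, and ACS4 rose at least 14.1-fold (adjusted p = 0.024). ACO6, an ACC oxidase, read 329, 1320.4 and 1638 at 35 DAP, 2888, 1009 and 1144 at 40 DAP and 4458, 4322 and 2968 at 45 DAP. ACO6 rose 4.31-fold (adjusted p = 0.0306). Replicate 1 at 35 DAP was the lowest of all 9 arrays, and the ages did not overlap. SAM1, an S-adenosylmethionine synthetase, fell 2.19-fold from 10498, 8863 and 7790.3 at 35 DAP to 4532, 3322 and 4576 at 45 DAP (adjusted p = 0.00728), and the groups did not overlap. ACS2, the other ACC synthase induced in ripening fruit, was dim on all 35 DAP arrays and read 110.4, 7.82 and 7.48 at 45 DAP, so that only replicate 1 was clear of the dim range (adjusted p = 0.147, not called). In fits that left out 1 array, the call of SAM1 held in all 6 such fits. ACS4 lost its call without replicate 2 at 35 DAP or replicates 1, 2 or 3 at 45 DAP (adjusted p = 0.0571 to 0.085) and ACO6 kept its call only without replicate 3 at 35 DAP (adjusted p = 0.0313, against 0.0528 to 0.0901 for the others). The fold of ACS4 was 8.49-fold without replicate 1 at 35 DAP and at least 28.8-fold without replicate 3 at 35 DAP and that of ACO6 was 2.62-fold without replicate 1 at 35 DAP. The 3′ to 5′ covariate ended the call of ACS4 (adjusted p = 0.0715).

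Of 34 genes of ethylene perception and response, 2 rose and 1 fell, with a median log2 change of 0.28. The 3 of 34 compare with 11.3% called among all probe sets, a similar share. The 2 that rose encode ethylene receptors, which repress the response until ethylene binds them. LOC544279, which carries the synonym ETR3 and is the receptor of the Never-ripe locus, read 258, 268 and 250.5 at 35 DAP, 959, 217 and 340.5 at 40 DAP and 2115, 820.4 and 675 at 45 DAP. LOC544279 rose 4.07-fold (adjusted p = 0.016). Its 35 DAP arrays lay within a narrow range, and replicate 1 was the highest array at both later ages. ETR6 read 10.6, 89.8 and 8.401 at 35 DAP, 411, 11.8 and 80.7 at 40 DAP and 324, 248 and 235 at 45 DAP. ETR6 rose at least 10.2-fold (adjusted p = 0.0311). At 35 DAP replicates 1 and 3 were dim and replicate 2 was well above them, but below every 45 DAP array. Receptors ETR1, ETR2, ETR4 and ETR5 had log2 changes of -0.10, 0.14, 1.31 and 1.04 and were not called. ER43, a clone isolated as ethylene-responsive, fell 1.93-fold from 297, 253 and 308 at 35 DAP to 129, 146 and 171 at 45 DAP (adjusted p = 0.0406). E8, an ethylene-induced fruit gene, read 1801, 60.4 and 1644 at 35 DAP and 6775, 2160.3 and 2377 at 45 DAP and missed the threshold (adjusted p = 0.0782), although its groups did not overlap. When single arrays were left out, LOC544279 lost its call without replicate 2 at 35 DAP (adjusted p = 0.05003) and ETR6 kept its call only without replicate 2 at 35 DAP (adjusted p = 0.0225, against 0.0529 to 0.113 for the others). ER43 kept its call only without replicate 1 at 35 DAP (adjusted p = 0.0481, against 0.0727 to 0.111 for the others). The fold of ETR6 was at least 18.8-fold without replicate 2 at 35 DAP. Fitted with the 3′ to 5′ ratio, the threshold was missed by ER43 (adjusted p = 0.0927).

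Enzymes of the cell wall changed in both directions, with 4 of 37 measured genes up, 6 down and a median log2 change of -0.49. The rises were led by PG2, the polygalacturonase that cuts pectin in ripe fruit, at 9.19, 5.58 and 6.45 at 35 DAP, 915, 375 and 7.43 at 40 DAP and 5949, 3906 and 3695 at 45 DAP. At 35 DAP all 3 arrays were dim, at 40 DAP replicates 1 and 2 were above that range and replicate 3 was not, and at 45 DAP all 3 were far above it. PG2 rose at least 313-fold (adjusted p = 0.00167). Man4, an endo-β-mannanase of ripening fruit, read 4.92, 5.296 and 4.51 at 35 DAP, 2026, 43.4 and 4.46 at 40 DAP and 7957, 1642 and 1562 at 45 DAP. Man4 rose at least 194-fold (adjusted p = 0.00417). Its 45 DAP arrays were again all above the dim 35 DAP arrays, while the 40 DAP arrays ran from dim to near the 45 DAP level. XTH5, a xyloglucan endotransglucosylase/hydrolase (XTH), which cuts and rejoins hemicellulose chains, rose 5.11-fold from 685, 276 and 1075 at 35 DAP to 3504, 2665 and 2901 at 45 DAP (adjusted p = 0.00728). TBG4, a β-galactosidase, rose 3.11-fold from 18.7, 17.5 and 18.9 at 35 DAP to 125, 37.8 and 39.4 at 45 DAP (adjusted p = 0.0458), with replicate 1 at 45 DAP well above replicates 2 and 3. On leaving out 1 array at a time, the calls of PG2, Man4 and XTH5 held in all 6 such fits. TBG4 lost its call whichever array was left out (adjusted p = 0.0511 to 0.151). The fold of Man4 was at least 114-fold without replicate 1 at 45 DAP. Calls lost with the 3′ to 5′ covariate were those of XTH5 (adjusted p = 0.0686) and TBG4 (adjusted p = 0.0991).

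The 6 wall genes that fell were XTH7, CEL8, XTH16, TBG6, exp11 and EXPA3. XTH7 read 329.8, 158 and 102 at 35 DAP, 4.66, 20.7 and 39.7 at 40 DAP and 4.65, 6.71 and 6.35 at 45 DAP. XTH7 fell at least 12.2-fold (adjusted p = 0.00298). Every 45 DAP array was dim, and so was replicate 1 at 40 DAP. CEL8, an endo-β-1,4-glucanase, read 798, 281 and 614 at 35 DAP, 20.2, 648 and 308 at 40 DAP and 7.72, 29.6 and 32.3 at 45 DAP. CEL8 fell at least 22.2-fold (adjusted p = 0.0154). Only replicate 1 was low at 40 DAP, and it was also the lowest at 45 DAP. XTH16, a second XTH, read 67.6, 994 and 764 at 35 DAP, 16.5, 206 and 185 at 40 DAP and 29.2, 25.1 and 29.95 at 45 DAP. Replicate 1 at 35 DAP was over 10 times lower than the other arrays of that age, yet above every 45 DAP array. XTH16 fell 13.3-fold (adjusted p = 0.0276). TBG6, a β-galactosidase of young fruit, read 2239, 1700.2 and 2130.1 at 35 DAP, 84.3, 4089.7 and 600.4 at 40 DAP and 35.2, 355 and 329 at 45 DAP. TBG6 fell 12.5-fold (adjusted p = 0.0467). At 40 DAP it ran from well below the 45 DAP arrays of replicates 2 and 3 to above every 35 DAP array. The expansin genes exp11 and EXPA3, whose proteins loosen walls of growing cells, fell at least 3.22-fold (adjusted p = 0.00741) and 2.03-fold (adjusted p = 0.0458). The signal of exp11 went from 101, 24.6 and 39.1 at 35 DAP to 5.65, 5.63 and 5.61 at 45 DAP, and all 45 DAP arrays were dim. EXPA3 stayed high, at 2027, 1807 and 1387 at 35 DAP against 874, 753 and 921 at 45 DAP. EXP1, the expansin of ripening fruit, read 30.4, 7.796 and 81.7 at 35 DAP and 1178, 45.2 and 47.2 at 45 DAP and was not called (adjusted p = 0.221). Only replicate 1 at 45 DAP was high, and the other arrays of both ages overlapped. After removal of 1 array, the calls of XTH7, CEL8 and exp11 held in all 6 such fits. XTH16 kept its call only without replicate 1 at 35 DAP (adjusted p = 0.003, against 0.0553 to 0.131 for the others) and TBG6 lost its call whichever array was left out (adjusted p = 0.0611 to 0.153). EXPA3 lost its call whichever array was left out (adjusted p = 0.0652 to 0.144). The fold of XTH16 was 31.1-fold without replicate 1 at 35 DAP and 8.11-fold without replicate 2 at 35 DAP and that of TBG6 was 5.88-fold without replicate 1 at 45 DAP. In the fit with the 3′ to 5′ ratio the threshold was missed by XTH16 (adjusted p = 0.228), TBG6 (adjusted p = 0.0996) and EXPA3 (adjusted p = 0.152).

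**Figure D2:**
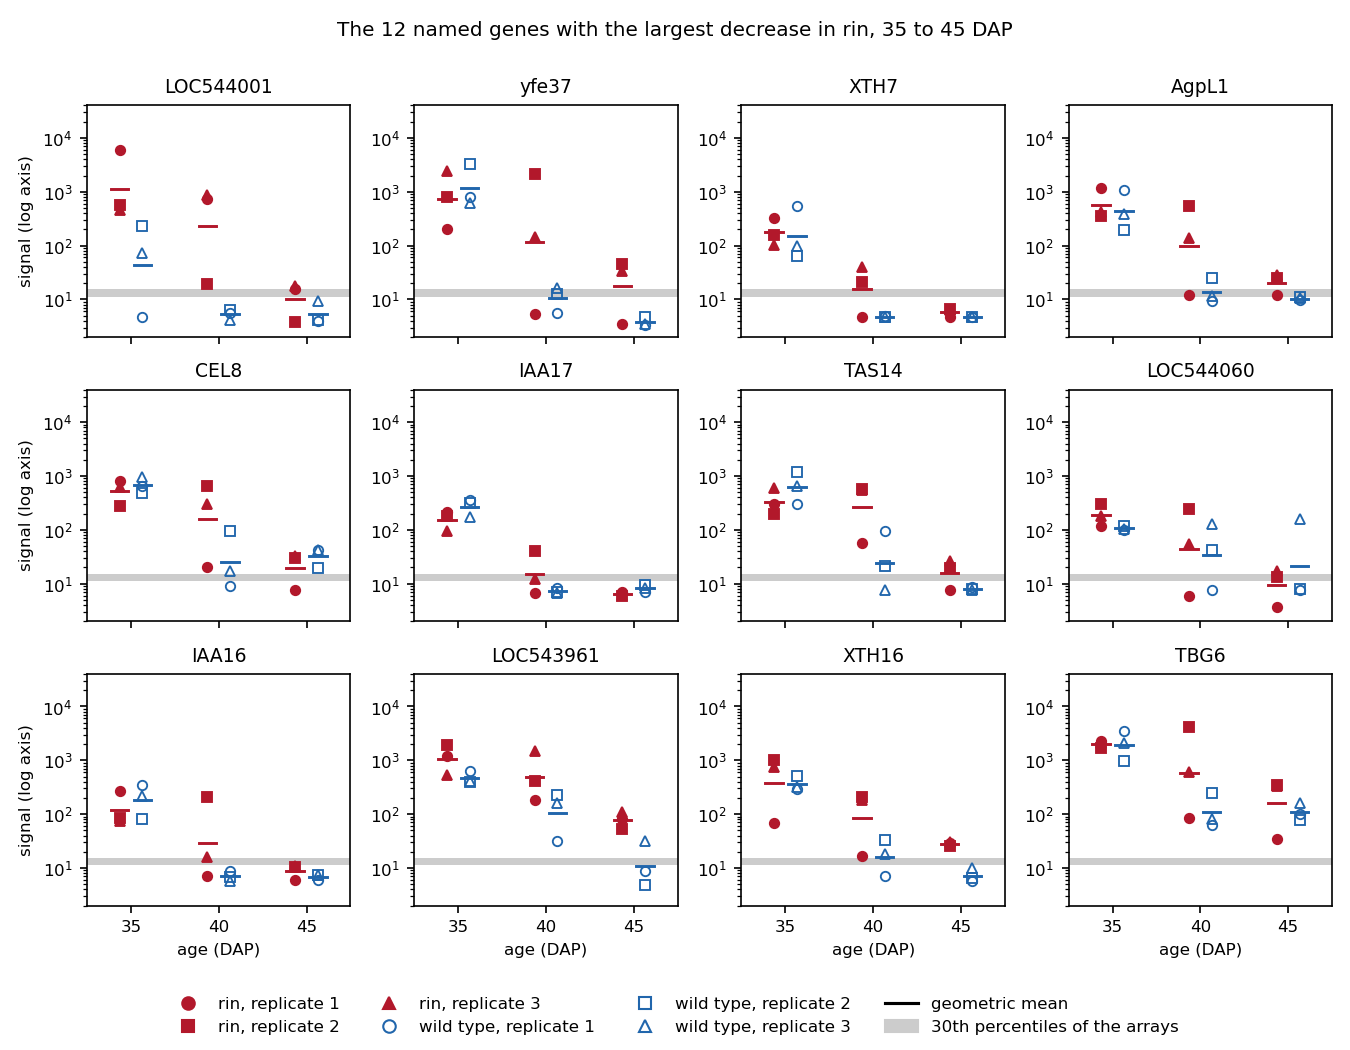
Signal (log axis) of the 12 named genes with the largest fall in rin fruit, among those whose arrays of 35 and 45 DAP do not overlap, against age in DAP, drawn with the same symbols, lines and grey band as the plot of the rising genes. By this choice the 45 DAP arrays lie below those of 35 DAP in every panel, and replicate 1 is the lowest rin array at 40 DAP in 11 of the 12.

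Of 8 genes for aroma volatiles 3 rose and none fell (median log2 change 0.44). AAT, an alcohol acyltransferase that makes esters, read 80.2, 4.22 and 47.3 at 35 DAP, 1768, 161 and 33.98 at 40 DAP and 3893, 1152 and 1351 at 45 DAP. AAT rose at least 48.4-fold (adjusted p = 0.0118). Replicate 2 at 35 DAP was dim, the other arrays of that age were not, and all 45 DAP arrays lay above all of them. The lipoxygenase gene loxC, needed in tomato fruit for volatiles derived from fatty acids, read 6.16, 4.48 and 33.4 at 35 DAP, 331, 59.5 and 19.9 at 40 DAP and 811, 271 and 284 at 45 DAP. loxC rose at least 21.3-fold (adjusted p = 0.00528). Replicates 1 and 2 at 35 DAP were dim, and replicate 1 was the highest at both later ages. LOXB, another fruit lipoxygenase, was already high at 35 DAP and rose 2.798-fold from 4693, 2122 and 3143 at 35 DAP to 8238, 7749 and 10741 at 45 DAP (adjusted p = 0.0289). The hydroperoxide lyase gene HPL and the carotenoid cleavage genes CCD1A and CCD1B had log2 changes of 0.71, -0.43 and 0.18 and were not called. Across the 6 fits without 1 array, the call of loxC held in all 6 such fits. AAT lost its call without replicate 2 at 35 DAP (adjusted p = 0.0555) and LOXB kept its call only without replicate 1 at 35 DAP (adjusted p = 0.0112, against 0.0526 to 0.135 for the others). The fold of AAT was 29.6-fold without replicate 2 at 35 DAP. With the 3′ to 5′ ratio as a covariate the test was missed by AAT (adjusted p = 0.109) and LOXB (adjusted p = 0.233). With the rin arrays alone, AAT missed the threshold too (adjusted p = 0.0714).

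Of 18 carotenoid and isoprenoid genes, 3 rose, 1 fell and the median log2 change was 0.29. The 3 that rose act at the start of the carotenoid pathway. Psy1, the phytoene synthase of fruit, read 659, 1068 and 1077 at 35 DAP, 4062, 2079 and 1391 at 40 DAP and 5816, 2651 and 3302 at 45 DAP. Psy1 rose 4.07-fold (adjusted p = 0.00728). Its 35 DAP arrays lay together, and replicate 1 was the highest at 40 and at 45 DAP. PDS, the phytoene desaturase, rose 2.21-fold from 196, 171 and 218 at 35 DAP to 580.2, 401 and 340.1 at 45 DAP (adjusted p = 0.0289). PTOX, the plastid terminal oxidase that takes up electrons from that desaturation, rose 1.89-fold from 243, 181 and 369 at 35 DAP to 562, 401 and 488 at 45 DAP (adjusted p = 0.0459). The gene that fell, CrtR-b1, encodes a β-carotene hydroxylase of the later, xanthophyll branch, and read 562, 405 and 434 at 35 DAP, 257, 382 and 414 at 40 DAP and 209.9, 168 and 174 at 45 DAP. The fall was 2.53-fold (adjusted p = 0.0107), and no 45 DAP array reached the lowest 35 DAP array. The ζ-carotene desaturase gene ZDS, at 318, 274 and 352 at 35 DAP against 549.9, 437 and 464 at 45 DAP, did not overlap between the ages but missed the threshold (adjusted p = 0.0607). In the 6 fits on 1 array fewer, the calls of Psy1 and CrtR-b1 held in all 6 such fits. PDS lost its call without replicates 2 or 3 at 35 DAP or replicates 1 or 2 at 45 DAP (adjusted p = 0.0569 to 0.107) and PTOX kept its call only without replicate 3 at 35 DAP (adjusted p = 0.0293, against 0.0582 to 0.199 for the others). The 3′ to 5′ covariate ended the call of PDS (adjusted p = 0.132) and PTOX (adjusted p = 0.254).

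Heat shock proteins gave the largest share of rising members, 4 of 8, with a median log2 change of 2.56. ER-SHSP, a small heat shock protein of the endoplasmic reticulum, read 9.91, 45.1 and 60.3 at 35 DAP, 276, 33.8 and 8.77 at 40 DAP and 1427, 5292 and 6999.8 at 45 DAP. ER-SHSP rose at least 112-fold (adjusted p = 0.00283). HSP21, the small heat shock protein of plastids, read 366, 11.8 and 298 at 35 DAP, 72.6, 74.3 and 14.1 at 40 DAP and 1095, 5457 and 3432 at 45 DAP. HSP21 rose at least 23.7-fold (adjusted p = 0.016). At 40 DAP all its arrays lay within the 35 DAP range. HSP17-6 rose 3.76-fold from an already high level, 5039, 2371 and 6778 at 35 DAP against 11571, 18258 and 20407 at 45 DAP (adjusted p = 0.0147). For these 3 genes replicates 2 and 3 at 45 DAP lay above replicate 1, and all 3 lay above the 35 DAP arrays. The fourth, vis1, a small heat shock protein of ripening fruit, read 19.8, 6.18 and 166 at 35 DAP and 165, 1103 and 946 at 45 DAP and was called higher (adjusted p = 0.0178). Its ages overlapped, with replicate 1 at 45 DAP just below replicate 3 at 35 DAP. HSP17.4 and the mitochondrial small heat shock protein gene MTSHP also had replicate 1 well below replicates 2 and 3 at 45 DAP, at 275, 9001 and 6060.2 and 496, 3460.1 and 2445, and were not called. The larger chaperones HSC80 and Hsp90-1 had log2 changes of -0.13 and -0.42 and were not called. With each array dropped in turn, the call of ER-SHSP held in all 6 such fits. HSP21 lost its call without replicates 2 or 3 at 45 DAP (adjusted p = 0.0552 to 0.0662) and HSP17-6 lost its call without replicate 2 at 35 DAP or replicates 2 or 3 at 45 DAP (adjusted p = 0.0542 to 0.0694). vis1 lost its call without replicate 2 at 35 DAP or replicates 2 or 3 at 45 DAP (adjusted p = 0.0687 to 0.0833). The fold of ER-SHSP was 72-fold without replicate 1 at 35 DAP and at least 182-fold without replicate 1 at 45 DAP and that of HSP21 was at least 42.3-fold without replicate 1 at 35 DAP, 8.29-fold without replicate 2 at 35 DAP, at least 38.2-fold without replicate 3 at 35 DAP and at least 37.5-fold without replicate 1 at 45 DAP. The fold of vis1 was 9.72-fold without replicate 2 at 35 DAP, at least 33.4-fold without replicate 3 at 35 DAP and at least 28.5-fold without replicate 1 at 45 DAP. Fitted with the 3′ to 5′ ratio, the threshold was missed by HSP21 (adjusted p = 0.126), HSP17-6 (adjusted p = 0.133) and vis1 (adjusted p = 0.162).

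Further genes with large rises came from other lists. PPCK2, the kinase that activates phosphoenolpyruvate carboxylase, was the 1 called gene of 7 in malate metabolism, at 9.51, 6.46 and 10.4 at 35 DAP, 140.2, 9.78 and 7.28 at 40 DAP and 1232, 291 and 217 at 45 DAP. It was dim on every 35 DAP array and on 2 of the 40 DAP arrays, and rose at least 30.2-fold (adjusted p = 0.00446). NP24-I, an osmotin-like defence protein, was the 1 called gene of 14 in the defence and wound response, at 19.6, 319 and 48.1 at 35 DAP, 192, 20.2 and 7.79 at 40 DAP and 1573, 1989 and 1824 at 45 DAP. Its 45 DAP arrays lay close together, while replicate 2 at 35 DAP was well above the others of that age. NP24-I rose 26.7-fold (adjusted p = 0.0354). The gibberellin 20-oxidase gene 20ox-3, which acts late in gibberellin synthesis, was the 1 called gene of 3 in gibberellin and brassinosteroid metabolism and read 7.599, 26.97 and 157 at 35 DAP, 59.5, 54.6 and 33.8 at 40 DAP and 317, 474 and 402 at 45 DAP. 20ox-3 rose at least 10.1-fold (adjusted p = 0.0229). Its 45 DAP arrays lay close together and its 35 DAP arrays far apart. Of 19 genes of ascorbate and redox metabolism, 2 rose, the glutathione synthesis gene GSH1 and the glutathione peroxidase gene GPXle-1. GSH1 rose 2.83-fold from 722, 606 and 539.5 at 35 DAP to 2627, 1217 and 1667 at 45 DAP (adjusted p = 0.0248). GPXle-1 rose 1.696-fold from 2054, 1479.9 and 1759 at 35 DAP to 2630.2, 3210.1 and 3092 at 45 DAP (adjusted p = 0.0145). Once 1 array was dropped, the call of PPCK2 held in all 6 such fits. NP24-I kept its call only without replicate 2 at 35 DAP (adjusted p = 0.0343, against 0.0647 to 0.0997 for the others) and 20ox-3 lost its call without replicate 2 at 35 DAP or replicates 2 or 3 at 45 DAP (adjusted p = 0.0679 to 0.0785). GSH1 lost its call without replicates 2 or 3 at 35 DAP or replicates 1 or 3 at 45 DAP (adjusted p = 0.0662 to 0.0812) and GPXle-1 lost its call without replicate 2 at 35 DAP or replicates 2 or 3 at 45 DAP (adjusted p = 0.0529 to 0.0679). The fold of PPCK2 was at least 17.8-fold without replicate 1 at 45 DAP and that of NP24-I was 14.4-fold without replicate 1 at 35 DAP and 58.2-fold without replicate 2 at 35 DAP. The fold of 20ox-3 was 6.02-fold without replicate 1 at 35 DAP and at least 20.4-fold without replicate 3 at 35 DAP. Calls lost with the 3′ to 5′ covariate were those of 20ox-3 (adjusted p = 0.0738), GSH1 (adjusted p = 0.104) and GPXle-1 (adjusted p = 0.136).

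Auxin response genes had the lowest median log2 change of any list, -1.64, with 4 of 7 members lower. That median is the change of IAA7, 1 of these 4, whose signals were mostly dim, so its size is uncertain. IAA17, one of the Aux/IAA proteins that repress auxin-responsive transcription, read 211, 180.3 and 94.1 at 35 DAP, 6.64, 40.4 and 12.3 at 40 DAP and 7.04, 5.91 and 6.16 at 45 DAP. IAA17 fell at least 10.7-fold (adjusted p = 0.000689). All 45 DAP arrays were dim and all 35 DAP arrays were far above that range. IAA16, of the same family, read 268, 84.7 and 75.6 at 35 DAP, 6.999, 207 and 16.2 at 40 DAP and 5.86, 10.5 and 10.9 at 45 DAP. IAA16 fell at least 8.38-fold (adjusted p = 0.0199). The 40 DAP arrays of IAA16 ran from dim to near the highest 35 DAP array. IAA7 was dim on 5 of the 6 arrays, at 5.31, 14.5 and 11.01 at 35 DAP against 3.17, 2.98 and 2.99 at 45 DAP, so no fold is given for its called fall (adjusted p = 0.0226). The auxin response factor gene ARF3, which binds auxin-responsive promoters, fell 1.87-fold from 382, 425 and 527 at 35 DAP to 348, 169.99 and 220.2 at 45 DAP (adjusted p = 0.0369). IAA3 and IAA27 had log2 changes of 1.03 and -0.51 and were not called. Of 8 cell cycle genes 2 fell and none rose, with a median log2 change of -0.56. The cyclin-dependent kinase gene CDKA1 read 385, 637 and 473 at 35 DAP, 96.6, 419.9 and 425 at 40 DAP and 61.2, 92.5 and 90.1 at 45 DAP. CDKA1 fell 6.103-fold (adjusted p = 0.0068). Replicate 1 alone was low at 40 DAP. CYCD3, a D-type cyclin that promotes entry into the cell cycle, fell at least 4.05-fold from 40.5, 85.2 and 78.3 at 35 DAP to 8.17, 13.8 and 20.9 at 45 DAP (adjusted p = 0.0391). Dropping 1 array at a time, the calls of IAA17 and CDKA1 held in all 6 such fits. IAA16 lost its call without replicate 2 at 35 DAP or replicates 1, 2 or 3 at 45 DAP (adjusted p = 0.05003 to 0.0545) and IAA7 lost its call without replicates 2 or 3 at 35 DAP or replicates 2 or 3 at 45 DAP (adjusted p = 0.0683 to 0.109). ARF3 lost its call without replicates 2 or 3 at 35 DAP or replicates 2 or 3 at 45 DAP (adjusted p = 0.0954 to 0.142) and CYCD3 kept its call only without replicate 1 at 35 DAP (adjusted p = 0.0218, against 0.061 to 0.143 for the others). In the fit with the 3′ to 5′ ratio the threshold was missed by IAA7 (adjusted p = 0.206), ARF3 (adjusted p = 0.215) and CYCD3 (adjusted p = 0.199).

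Sugar and starch metabolism had 20 measured genes, of which 3 were lower and none higher at 45 DAP (median log2 change -0.01). The 3 of 20 compare with 12.6% called among all named genes, a similar share. AgpL1, the large subunit of ADP-glucose pyrophosphorylase, which commits glucose to starch, read 1197, 349.5 and 423 at 35 DAP, 12.1, 550.4 and 139.6 at 40 DAP and 12.3, 24.8 and 28.6 at 45 DAP. AgpL1 fell at least 26.7-fold (adjusted p = 0.0115). Replicate 1 had the highest signal of all at 35 DAP and the lowest at 40 and 45 DAP. The sucrose synthase gene LOC543961, with the synonym SUS1, which breaks sucrose down in growing sinks, read 1186, 1895 and 524 at 35 DAP, 184, 419.5 and 1502 at 40 DAP and 80.5, 53.9 and 111 at 45 DAP. LOC543961 fell 13.5-fold (adjusted p = 0.0153). At 40 DAP replicate 3 was still within the 35 DAP range and replicates 1 and 2 were below it. FRK2, a fructokinase, fell 1.98-fold from 1256, 1691 and 957 at 35 DAP to 751, 529.8 and 653 at 45 DAP (adjusted p = 0.0178). The acid invertase genes AI and lin5 had log2 changes of 1.42 and 1.41 and were not called. Glutamate and GABA metabolism had 3 of 8 members lower and a median log2 change of -1.24. The median lies between GS2 (-1.10) and gad2 (-1.37), neither called, and the place of gad2 in this list is doubtful. The glutamate decarboxylase gene yfe37, with the synonym GAD3, which makes GABA, read 203, 794 and 2466 at 35 DAP, 5.27, 2106 and 145 at 40 DAP and 3.42, 46.3 and 33.999 at 45 DAP. yfe37 fell at least 26.8-fold (adjusted p = 0.0441). Its 35 DAP arrays differed over 10 times, and replicate 1 was the lowest at every age. GABA-TP2, a GABA transaminase, which breaks GABA down, fell at least 5.32-fold from 92.4, 109 and 71.5 at 35 DAP to 8.299, 11.4 and 24.7 at 45 DAP (adjusted p = 0.0467). A further member, gts1, fell at least 4.57-fold from 160.1, 80.6 and 21.5 at 35 DAP to 7.74, 7.48 and 7.45 at 45 DAP (adjusted p = 0.0204). Both had dim arrays at 45 DAP. With 1 of the 6 arrays left out, the call of AgpL1 held in all 6 such fits. LOC543961 lost its call without replicate 2 at 35 DAP or replicate 2 at 45 DAP (adjusted p = 0.059 to 0.0676) and FRK2 lost its call without replicate 2 at 35 DAP or replicates 2 or 3 at 45 DAP (adjusted p = 0.0529 to 0.0841). yfe37 kept its call only without replicate 1 at 35 DAP (adjusted p = 0.0226, against 0.0722 to 0.146 for the others) and GABA-TP2 lost its call whichever array was left out (adjusted p = 0.0572 to 0.151). gts1 lost its call without replicate 2 at 35 DAP or replicates 2 or 3 at 45 DAP (adjusted p = 0.0622 to 0.0759). The fold of yfe37 was at least 51.03-fold without replicate 1 at 35 DAP and at least 14.7-fold without replicate 3 at 35 DAP and that of gts1 was at least 2.92-fold without replicate 1 at 35 DAP and at least 7.96-fold without replicate 3 at 35 DAP. With the 3′ to 5′ ratio as a covariate the test was missed by LOC543961 (adjusted p = 0.104), FRK2 (adjusted p = 0.157), yfe37 (adjusted p = 0.154), GABA-TP2 (adjusted p = 0.18) and gts1 (adjusted p = 0.0738).

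TAS14, a dehydrin that protects cells in drought, was the 1 called member of 11 in water stress and abscisic acid, at 301, 199 and 602 at 35 DAP, 57.6, 575 and 561 at 40 DAP and 7.505, 19.9 and 26.7 at 45 DAP. TAS14 fell at least 17.3-fold (adjusted p = 0.0118), and at 40 DAP only replicate 1 lay below the 35 DAP range. OPR3, the reductase of jasmonate synthesis, was the 1 called member of 5 there and fell 2.52-fold from 1087, 942 and 815 at 35 DAP to 375, 373 and 373 at 45 DAP (adjusted p = 0.0418). Its 45 DAP arrays differed by under 3 signal units, and the 35 DAP arrays lay at more than 800. The genes LOC544001 and LOC544060 were also among the 12 largest falls. LOC544001 read 5882, 565 and 452 at 35 DAP, 734, 19.3 and 869 at 40 DAP and 15.7, 3.87 and 17.8 at 45 DAP. LOC544001 fell at least 71.2-fold (adjusted p = 0.0124). Replicate 1 at 35 DAP was over 10 times above the other arrays of that age, and all of them were far above the 45 DAP arrays. LOC544060 read 119.8, 308 and 183 at 35 DAP, 5.96, 249 and 55.1 at 40 DAP and 3.61, 13.4 and 17.2 at 45 DAP. LOC544060 fell at least 12.6-fold (adjusted p = 0.049). In fits that left out 1 array, the call of TAS14 held in all 6 such fits. OPR3 lost its call whichever array was left out (adjusted p = 0.0621 to 0.121) and LOC544001 lost its call without replicate 2 at 45 DAP (adjusted p = 0.0545). LOC544060 kept its call only without replicate 1 at 35 DAP (adjusted p = 0.0434, against 0.0899 to 0.166 for the others). The fold of LOC544001 was at least 31.4-fold without replicate 1 at 35 DAP and at least 113-fold without replicate 3 at 35 DAP. The 3′ to 5′ covariate ended the call of OPR3 (adjusted p = 0.12) and LOC544060 (adjusted p = 0.216).

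**Figure D3:**
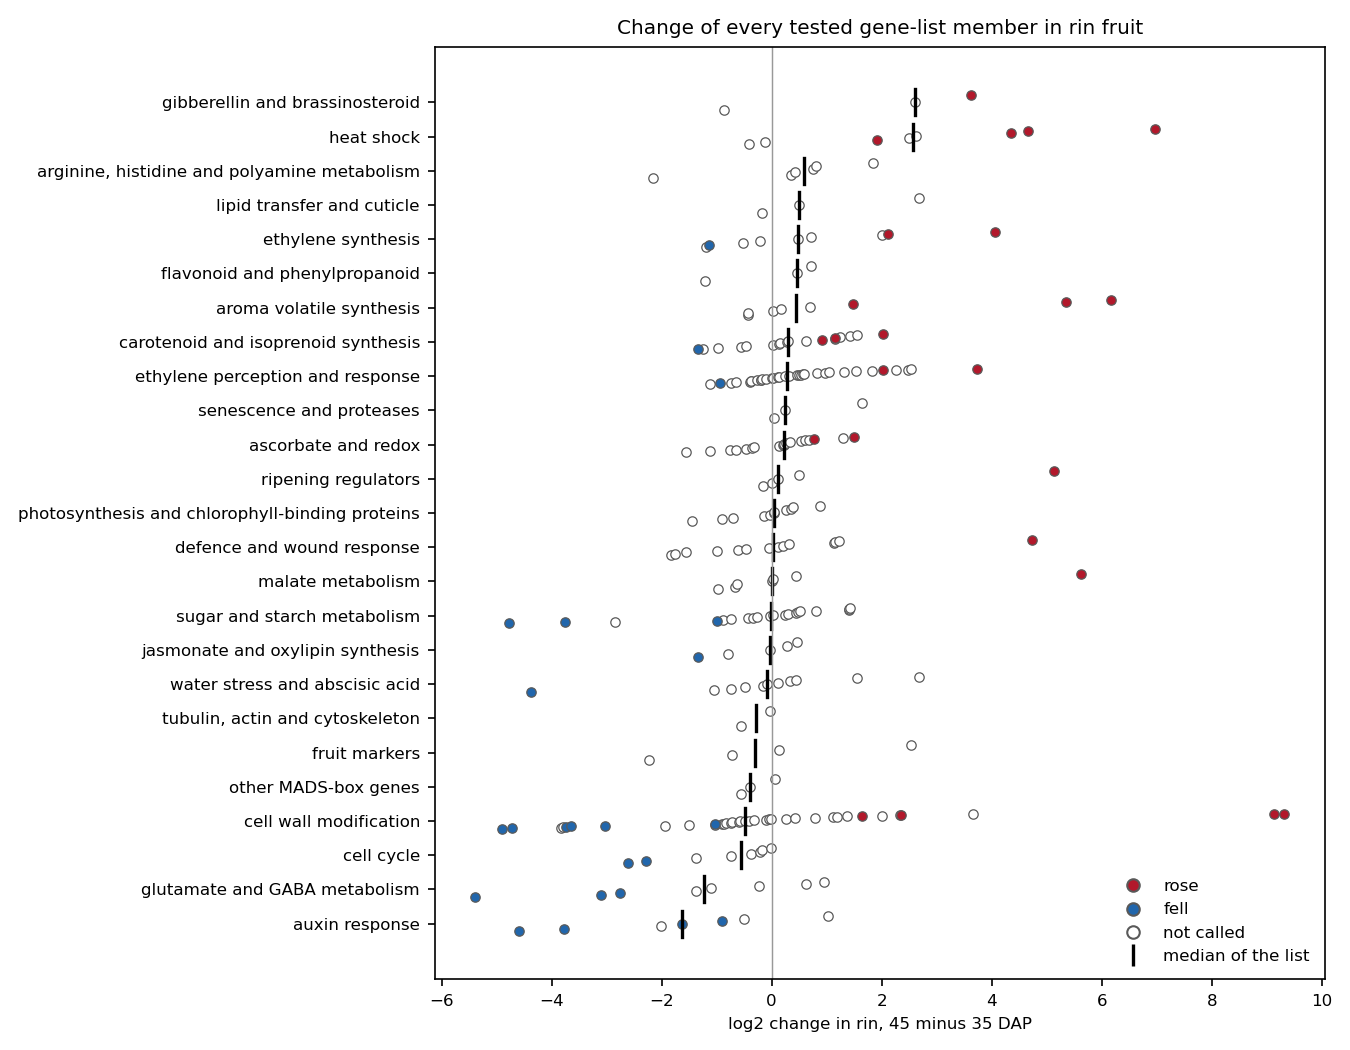
Log2 change from 35 to 45 DAP in rin (horizontal axis) for every tested member of each gene list, with called rises in red, called falls in blue, uncalled members open and a black bar at the median of the list. Medians run from -1.64 for auxin response to 2.60 for the 3 gibberellin and brassinosteroid genes, and in all 47 of the members drawn were called. The auxin response median is the change of IAA7, whose signals were mostly dim.

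The calls in ascorbate and redox (2 of 19), defence (1 of 14) and water stress (1 of 11) compare with 12.6% of all named genes, again a similar share. The same holds for malate metabolism (1 of 7). Larger shares were called in ethylene synthesis (3 of 9), carotenoids (4 of 18), the cell wall (10 of 37) and aroma volatiles (3 of 8). Heat shock (4 of 8), auxin response (4 of 7), the cell cycle (2 of 8) and glutamate and GABA (3 of 8) were also above it. No set test was run, and the lists were chosen with earlier results of these data known. In jasmonate synthesis (1 of 5), the ripening regulators (1 of 5) and gibberellin and brassinosteroid metabolism (1 of 3) the call is a single gene. That is too few to read as a result about the list. No member was called in 8 of the 25 lists with measured genes. These held the 11 genes of photosynthesis and chlorophyll-binding proteins, with a median log2 change of 0.05 and a range from -1.45 to 0.88, and the 6 of arginine, histidine and polyamine metabolism, with a median of 0.59. The others were the other MADS-box genes (-0.39), flavonoid and phenylpropanoid (0.47), lipid transfer and cuticle (0.49), senescence and proteases (0.24), tubulin, actin and cytoskeleton (-0.29) and the fruit markers (-0.30), each with 2 to 4 members and the median given. The MADS-box list holds only LOC543885, MADS1 and TDR6. AGL11, a MADS-box gene outside it, was called lower and is described at the end. CAB4, a chlorophyll-binding protein gene, showed the spread within the photosynthesis list, at 505, 269 and 1100.1 at 35 DAP against 34.7, 423 and 498 at 45 DAP, with replicate 1 at 45 DAP far below the others (adjusted p = 0.43).

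Among the probe sets with no gene name here, the largest changes without overlap of the arrays were over 50-fold. LesAffx.24637.1.S1_at read 15.9, 8.51 and 179.7 at 35 DAP, 1161, 391 and 50.9 at 40 DAP and 5579, 2794 and 2445 at 45 DAP. This probe set rose at least 98.2-fold (adjusted p = 0.00283). Les.1046.1.S1_at read 19.8, 14.1 and 52.5 at 35 DAP and 8610.4, 1322 and 1283 at 45 DAP. This probe set rose 100.05-fold (adjusted p = 0.00644). Les.3186.3.A1_at read 2307, 2454 and 1877 at 35 DAP, 5.31, 467 and 2601 at 40 DAP and 9.85, 5.79 and 4.42 at 45 DAP. This probe set fell at least 154-fold (adjusted p = 0.00631). Les.3186.1.S1_at, whose probe set ID shares its first number with that one, read 1432, 721 and 645 at 35 DAP and 5.16, 4.74 and 4.78 at 45 DAP. This probe set fell at least 61.2-fold (adjusted p = 0.00728). All 4 separated the ages without overlap, which was a condition of their choice. When single arrays were left out, the calls of LesAffx.24637.1.S1_at, Les.1046.1.S1_at, Les.3186.3.A1_at and Les.3186.1.S1_at held in all 6 such fits. The fold of LesAffx.24637.1.S1_at was 62.9-fold without replicate 2 at 35 DAP and at least 225-fold without replicate 3 at 35 DAP and that of Les.1046.1.S1_at was 53.3-fold without replicate 1 at 45 DAP.

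The change over the same ages in wild type, which comes from other arrays, was then set beside that in rin. In wild type 42.6% of probe sets were called, of which more rose (23.6% of all) than fell (18.9%). Of the 463 probe sets that rose in rin, 335 also rose in wild type (72.4% of the rin list and 18.4% of the wild-type list), 10 fell there and 118 were not called there. Of the 409 that fell in rin, 231 also fell in wild type (56.5% of the rin list and 15.8% of the wild-type list), 8 rose and 170 were not called. For the probe sets called in the same direction in both genotypes, the median size of the log2 change was 1.45 in rin and 1.85 in wild type for rises, and 1.99 and 3.06 for falls. The difference between the 2 changes was tested itself as an interaction in the same fit, and it was called for 13.2% of all probe sets, 1018 in number. Among the rin rises it was called for 50, of which 26 rose less in rin than in wild type, and among the rin falls for 87, of which 38 fell less.

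**Figure D4:**
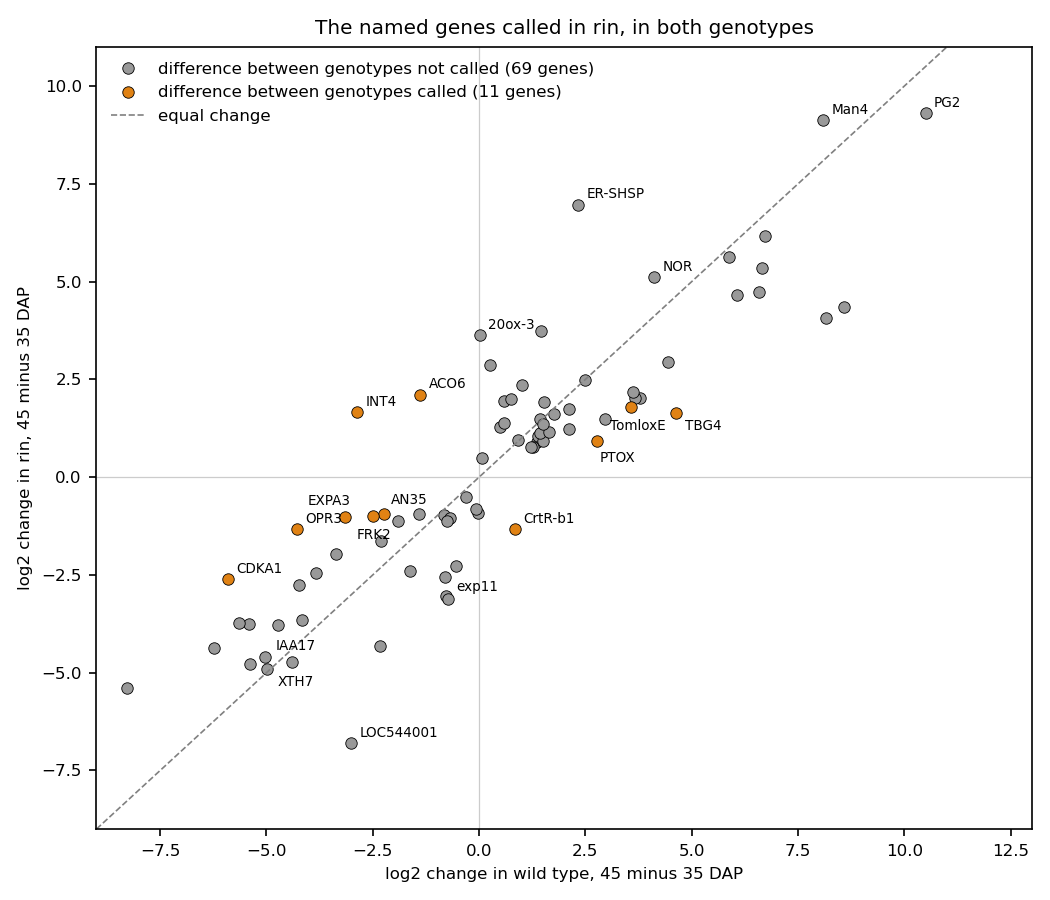
Log2 change from 35 to 45 DAP in rin (vertical axis) against that in wild type (horizontal axis) for the 80 named genes called in rin, 1 point a gene, with the 11 whose difference between genotypes was called in orange and a dashed line at equal change. INT4 and ACO6 lie above 0 in rin and below 0 in wild type, and CrtR-b1 lies below 0 in rin and above 0 in wild type.

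The difference was called for 17.3% of the named genes, and for 11 of the 80 that were called in rin. CrtR-b1 fell in rin and rose 1.79-fold in wild type, from 446, 502 and 361 to 917, 886 and 571 (interaction adjusted p = 0.00239). INT4, an inositol transporter gene, rose at least 2.76-fold in rin, from 9.096, 14.4 and 15.8 to 38.8, 40.8 and 41.4 (adjusted p = 0.0201), and fell at least 2.17-fold in wild type, from 16.6, 35.1 and 26.8 to 3.1004, 2.96 and 4.38 (interaction adjusted p = 0.000142). ACO6, which rose in rin, read 1538, 749 and 1317 at 35 DAP and 223, 556 and 691 at 45 DAP in wild type, where it was not called (interaction adjusted p = 0.00988). Falls that were smaller in rin than in wild type included CDKA1, at 565, 399.9 and 399 at 35 DAP and 5.96, 6.31 and 10.95 at 45 DAP in wild type (interaction adjusted p = 0.00553). OPR3 fell to a lower level in wild type too, at 657, 569.6 and 677 at 35 DAP and 32.9, 24.95 and 41.1 at 45 DAP (interaction adjusted p = 0.0028). Smaller falls in rin were also those of EXPA3 (interaction adjusted p = 0.00503), FRK2 (interaction adjusted p = 0.00738) and AN35 (interaction adjusted p = 0.0251). AN35 fell 1.92-fold in rin (adjusted p = 0.0281) and 4.69-fold in wild type. Rises that were smaller in rin were those of TBG4 (interaction adjusted p = 0.0108), PTOX (interaction adjusted p = 0.00637) and the lipoxygenase gene TomloxE (interaction adjusted p = 0.0377), which rose 3.49-fold in rin (adjusted p = 0.0101) and 11.8-fold in wild type. With 1 of the 12 arrays of these ages left out, the difference between the genotypes was called for TomloxE in 2 of 12 fits (adjusted p up to 0.0909) and for AN35 in 6 of 12 (up to 0.0696), and for the other 9 of these genes in all 12. For the change in rin itself the fits were as follows. On leaving out 1 array at a time, the call of TomloxE held in all 6 such fits. INT4 lost its call without replicate 2 at 35 DAP or replicates 2 or 3 at 45 DAP (adjusted p = 0.0518 to 0.0649) and AN35 lost its call without replicates 2 or 3 at 35 DAP or replicates 1 or 2 at 45 DAP (adjusted p = 0.057 to 0.112). Fitted with the 3′ to 5′ ratio, the threshold was missed by INT4 (adjusted p = 0.0612) and AN35 (adjusted p = 0.0975). For PG2, Man4, NOR, loxC and AAT the interaction was not called (adjusted p = 0.693, 0.802, 0.677, 0.558 and 0.887), which does not show that the changes were equal, and ER-SHSP was just outside the threshold (adjusted p = 0.0504). ER-SHSP read 44.96, 263 and 134 at 35 DAP and 411, 522 and 929 at 45 DAP in wild type, below its rin levels at 45 DAP.

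The difference was also called for genes that changed in wild type and were not called in rin, and the ones below were chosen after their values were seen. The ripening genes Cel2, hdc and ACS2 rose at least 288-fold, at least 496-fold and at least 274-fold in wild type. Cel2, an endo-β-1,4-glucanase of ripening fruit, was dim on all 6 rin arrays of 35 and 45 DAP (interaction adjusted p = 9.11e-06). The histidine decarboxylase gene hdc read 213, 6.91 and 6.21 in rin at 45 DAP, so that only replicate 1 was above the dim range (interaction adjusted p = 0.00107), the same array that was high for ACS2 (interaction adjusted p = 0.00101). XYL1, a wall glycosidase gene, was dim on all 6 rin arrays (interaction adjusted p = 0.00553). DXS, which starts plastid isoprenoid synthesis, read 362, 346 and 219 at 35 DAP against 403, 339.7 and 272 at 45 DAP in rin. In wild type it read 391, 289 and 378 at 35 DAP and 1735, 2246 and 2098 at 45 DAP (interaction adjusted p = 0.0043). ER1, another ethylene-responsive clone, read 4.13, 188 and 15.9 at 35 DAP against 216, 55.5 and 45.96 at 45 DAP in rin (interaction adjusted p = 0.0131), and the difference was also called for ZDS (interaction adjusted p = 0.0014). In the other direction, 3 of the 11 photosynthesis genes fell in wild type, were not called in rin and differed between the genotypes, namely PsbQ, a protein of photosystem II (interaction adjusted p = 0.000483), LOC543978 (interaction adjusted p = 0.0017) and the chlorophyll-binding protein gene CAB6A (interaction adjusted p = 0.00484). PsbQ read 698, 2059 and 1948 at 35 DAP against 2468, 1461 and 1629 at 45 DAP in rin. In wild type PsbQ read 1885, 2104 and 1941 at 35 DAP and 56.7, 100.01 and 191 at 45 DAP, so that the wild-type ages separated and the rin ages overlapped. The glycoprotein gene GP1 read 16066, 13801 and 14559 at 35 DAP against 6088, 10796 and 10892 at 45 DAP in rin. In wild type GP1 read 12786, 11920.2 and 12991 at 35 DAP and 35.2, 44.6 and 153 at 45 DAP (interaction adjusted p = 5.93e-06). The rin change also lay above a fall in wild type for the expansin gene EXP5 (interaction adjusted p = 0.000419), the tubulin gene TUB (interaction adjusted p = 0.000265), the lipid transfer protein gene ltpg1 (interaction adjusted p = 0.00848), the lipoxygenase gene LOX1.1 (interaction adjusted p = 0.00127) and the ACC synthase gene ACS6 (interaction adjusted p = 0.0188), none of which was called in rin. The difference for ACS6 was called in 8 of 12 fits without 1 array (adjusted p up to 0.0557).

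**Figure D5:**
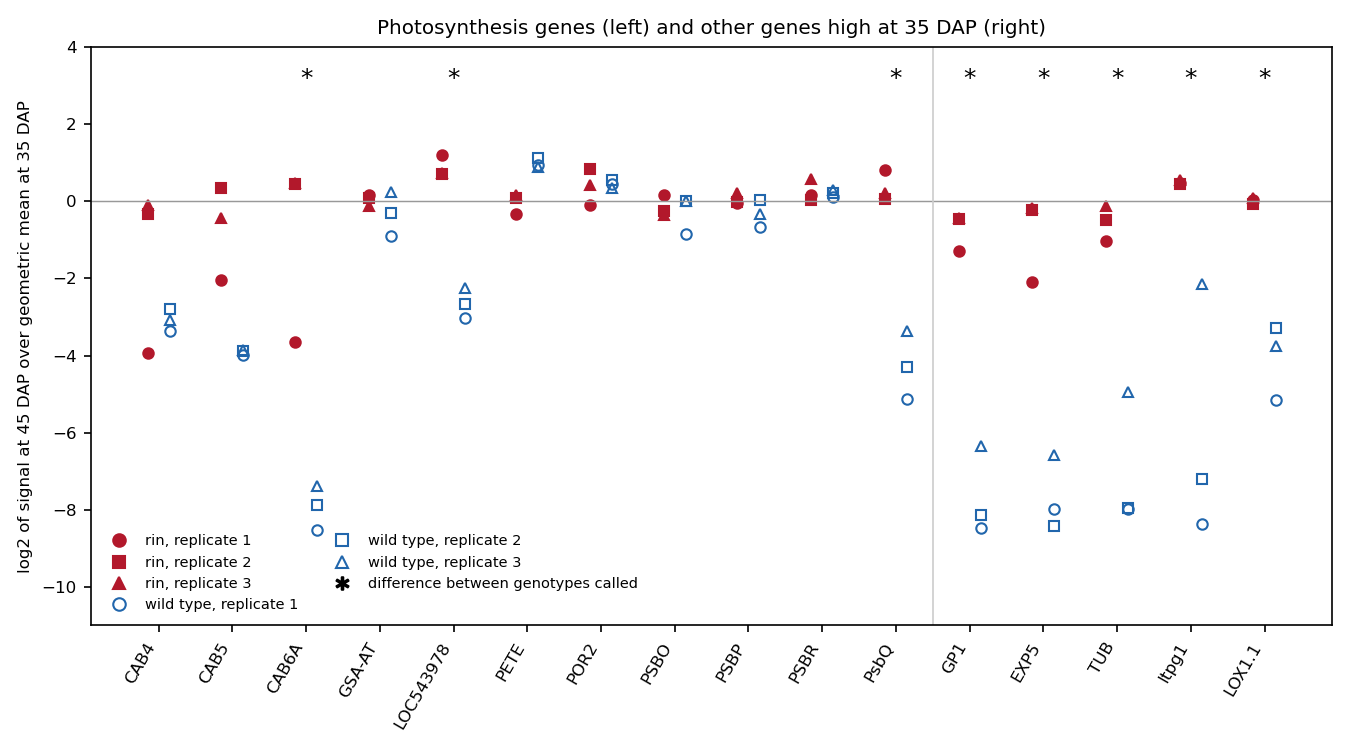
Log2 of the signal at 45 DAP over the geometric mean at 35 DAP of the same genotype, for the 11 photosynthesis genes (left of the line) and 5 other genes high at 35 DAP (right), with rin arrays in red, wild-type arrays in open blue and a star where the difference between genotypes was called. The rin arrays lie near 0 for most genes, with replicate 1 lower for CAB4, CAB5 and CAB6A, while the wild-type arrays of the starred genes lie well below 0.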

How the data were processed

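Each probe set has 1 deposited intensity on each array, a linear signal. The submitters' processing notes name GCOS, with no version, as the software behind it. Trimmed by 2%, the mean signals of all arrays were from 327.6 to 348.2, so the deposited intensity values had been brought to a common level, by a target not given in the sources used here. The scanner files were not used here, and the general protocol text in the labels speaks of seedlings, so groups were taken from titles and characteristics alone.

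Values were taken to log2 with no further normalization. Of 10209 probe sets, 108 controls and 2384 dim probe sets were left out, the latter having under 3 of 18 arrays above the 30th percentile of the array. A model of the 6 group means was fitted to the 18 arrays with limma 3.58.1 in R 4.3.3 (eBayes with a trend, 12 residual degrees of freedom), adjusted by Benjamini-Hochberg over the 7717 probe sets and called at an adjusted p under 0.05, two-sided. The procedure was tested on simulated data with independent noise and no differences in quality between arrays. That setting does not bear on the shifts in the number of calls between fits. The 909 probe sets with a symbol came from the platform annotation, 885 of them matched RefSeq's gene table of assembly SLM_r2.1, and the brightest probe set stood for each gene. The members and the gene lists were chosen with earlier results of these data known. Genes are named when they are among the 12 largest rises or falls without overlap of the arrays, among the 3 smallest adjusted p of the called members of a list, or RIN, and others are examples of a list or were chosen after their values were seen. Alternatives covered scaling, filters, an added constant, the arrays in the fit, the replicate number as a block, the 3′ to 5′ ratio, and each array left out.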

Additional observations from a re-analysis of the deposited data

Results flagged for a closer look

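The change from 35 to 45 DAP differed between rin and wild type for 1018 probe sets by limma's interaction test, 557 with the rin change above that of wild type and 461 with it below. Each value below is the rin log2 change minus the wild-type log2 change of a gene named in the text. Dim signals enter these values as deposited, so sizes are uncertain where arrays were dim. Such genes include RIN, Cel2, XYL1, hdc, ACS2, INT4 and CDKA1. It was above 0 for the ethylene synthesis genes ACO6 (3.49) and ACS6 (3.72), for CDKA1 (3.30), AN35 (1.29), INT4 (4.53), OPR3 (2.96) and FRK2 (1.51), and for the wall and structural genes EXP5 (6.82), EXPA3 (2.13), GP1 (6.93) and TUB (6.41). It was also above 0 for the photosynthesis genes CAB6A (7.02), PsbQ (4.62) and LOC543978 (3.53), and for ltpg1 (6.40) and LOX1.1 (4.08). It was below 0 for RIN (-5.65), ACS2 (-7.76), Cel2 (-10.60), hdc (-8.53), ER1 (-6.01), XYL1 (-4.99), TBG4 (-3.0) and TomloxE (-1.76), and for the carotenoid pathway genes CrtR-b1 (-2.18), DXS (-2.38), PTOX (-1.86) and ZDS (-1.70). When each of the 12 arrays of 35 and 45 DAP was left out in turn, the difference stayed called in all 12 fits except for ACS6 (8 of 12, adjusted p up to 0.0557), AN35 (6 of 12, up to 0.0696) and TomloxE (2 of 12, up to 0.0909).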

How the results depend on the processing

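The 872 calls stayed within 1.5 times that number under quantile normalization, median centring, no filter, a 50th percentile filter, 32 added to each signal, no variance trend, a 2-fold minimum and without the rin arrays at 40 DAP, the last chosen after seeing the data. Median centring gave 375 rises and 464 falls, so the split between directions depended on centring. The number was 394 (192 higher and 202 lower) with the 6 arrays compared, 72 (40 higher and 32 lower) with the 9 rin arrays, 208 (116 higher and 92 lower) with the 3′ to 5′ ratio as a covariate and 292 (168 higher and 124 lower) with replicates 2 and 3 at 45 DAP averaged. With single rin arrays left out it ran from 267 to 1754 (rises 152 to 1031, falls 115 to 723). The list members called, 47 in the fit over all arrays, were 4, 24 and 21 in the last 3 of those fits and 20 to 52 with single arrays left out. The 1018 differences between genotypes were 665 with those replicates averaged (256 below wild type), 640 to 1389 with single rin arrays left out (249 to 663 below) and 687 to 959 with single wild-type arrays left out (279 to 412 below), and with the 3′ to 5′ ratio 297 lay below wild type. The cause of these shifts was not tested.

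No value of the 113 single-gene results changed sign under any alternative run. Nearly all of these results were chosen as called, and some fits leave the change itself as it was. A turned sign was thus unlikely from the start. Of the 42 called genes named by the rule, 15 kept their call with any 1 array left out, 28 in the fit on the 6 arrays compared, 20 with the 3′ to 5′ ratio and 4 in the fit on the rin arrays, namely PG2, ER-SHSP, XTH7 and IAA17. With the replicate block the number of calls was 840, of which 718 were among the 872. The titles number plants 1 to 3 at each age. Compared at equal replicate numbers, their other code differs between 35 and 45 DAP for replicate 1 in rin and for all 3 replicates in wild type. In rin it recurs for replicates 2 and 3. In wild type code 7 stands at replicate 3 of 35 DAP and at replicate 1 of 45 DAP. Shared plants are thus possible in both genotypes. The replicate block used the replicate number, which does not match this code in wild type. The deviations of same-numbered rin arrays at 35 and 45 DAP correlated at 0.109, 0.0929 and 0.0179 across probe sets. Those of differently numbered arrays correlated at -0.139 to 0.0858. These values cannot decide whether samples were paired, since each deviation is taken from a mean of only 3 arrays. The main fit did not pair the samples. Dim signals limit the folds given as bounds.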

Other observations

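The genes below were called, belong to no list and were picked after their values were seen, so they stand for no group of genes. CGS, the cystathionine γ-synthase of methionine synthesis, read 1812, 1031 and 985 at 35 DAP and 6670, 3816 and 4119 at 45 DAP. CGS rose 3.85-fold (adjusted p = 0.0047), and SAHH, which recycles S-adenosylhomocysteine, rose 2.54-fold from 5028, 2193 and 2934 at 35 DAP to 9944, 8153 and 6567 at 45 DAP (adjusted p = 0.0108). The phosphate transporter gene PT1 read 87.2, 117 and 82.6 at 35 DAP and 945, 522 and 646 at 45 DAP. PT1 rose 7.24-fold (adjusted p = 0.0347), and the metal transporter gene NRAMP3 rose 1.93-fold from 1395, 1306 and 1051 at 35 DAP to 2413, 2386 and 2401 at 45 DAP (adjusted p = 0.0101). None of these 4 overlapped between the ages. After removal of 1 array, the calls of CGS and NRAMP3 held in all 6 such fits. SAHH lost its call without replicate 2 at 35 DAP (adjusted p = 0.0518) and PT1 kept its call only without replicate 1 at 35 DAP (adjusted p = 0.0428, against 0.0727 to 0.0944 for the others). Calls lost with the 3′ to 5′ covariate were those of SAHH (adjusted p = 0.107), PT1 (adjusted p = 0.0927) and NRAMP3 (adjusted p = 0.0619).

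A further 6 called genes were picked in the same way. TFT7, a 14-3-3 protein, rose 2.33-fold from 837, 913 and 817 at 35 DAP to 2352, 1786 and 1888 at 45 DAP (adjusted p = 0.00396). The translation factor genes eIF-5A3 and eIF-5A1 moved in opposite directions, eIF-5A3 up 1.41-fold from 2708, 2995 and 2734 at 35 DAP to 3812, 4351 and 3709.8 at 45 DAP (adjusted p = 0.0121) and eIF-5A1 down 2.16-fold from 7362, 5644 and 4396 at 35 DAP to 3776, 1477 and 3253 at 45 DAP (adjusted p = 0.0266). AO1, an aldehyde oxidase, fell 5.88-fold from 115, 163 and 193 at 35 DAP to 20.6, 31.2 and 27.6 at 45 DAP (adjusted p = 0.011), and the MYB gene THM27 fell 3.903-fold from 132, 313 and 278 at 35 DAP to 37.3, 71.8 and 72.3 at 45 DAP (adjusted p = 0.0137). AGL11, a MADS-box gene, was called lower (adjusted p = 0.024) although its arrays overlapped, at 20.8, 74.6 and 63.4 at 35 DAP against 21.1, 5.31 and 5.32 at 45 DAP. Across the 6 fits without 1 array, the calls of TFT7 and AO1 held in all 6 such fits. eIF-5A3 lost its call without replicate 2 at 45 DAP (adjusted p = 0.0554) and eIF-5A1 lost its call without replicate 2 at 35 DAP or replicate 2 at 45 DAP (adjusted p = 0.0799 to 0.0897). THM27 lost its call without replicates 2 or 3 at 35 DAP (adjusted p = 0.0512 to 0.0631) and AGL11 lost its call without replicates 2 or 3 at 35 DAP or replicates 2 or 3 at 45 DAP (adjusted p = 0.0832 to 0.109). In the fit with the 3′ to 5′ ratio the threshold was missed by eIF-5A1 (adjusted p = 0.156), AO1 (adjusted p = 0.0612), THM27 (adjusted p = 0.122) and AGL11 (adjusted p = 0.214).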
